A study of Mus musculus with 18 samples.

Results

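The serum amyloid A genes of the mouse, *Saa1*, *Saa2*, *Saa3* and *Saa4*, were followed through RNA-seq values of LPS-treated macrophages and liver. The 4 genes were taken by symbol from the 21441 genes listed in each of the 2 expression tables. The family was chosen by the FPKM values of *Saa3* in the LPS+MIC-1 and LPS libraries, which differed in opposite directions in the 2 sources, so that contrast is described here without a test. MIC-1 is moringa isothiocyanate-1, an isothiocyanate from seeds of *Moringa oleifera*, and LPS is lipopolysaccharide from the outer membrane of Gram-negative bacteria. The question was how expression after LPS differed when MIC-1 had also been given.

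The liver libraries came from wild type C57BL/6 mice, male by the study's methods and of an age the sources used here do not give. Control mice were injected with saline. LPS mice received 10 mg/kg LPS into the peritoneum. LPS+MIC-1 mice first had MIC-1 by gavage (80 mg/kg, in DMSO, over 3 days) and then the same LPS injection, and all livers were collected at 16 h. The macrophages are cultured RAW264.7 cells, a macrophage-like mouse line, with solvent controls. The MIC-1 concentration was 10 µM. The labels give these cultures the wild type genotype, the C57BL/6 strain and the doses of the mouse experiment, and the LPS concentration of the sequenced cultures is not given in the sources used here. There were 3 libraries for each treatment in each source, 18 in all. Mice not given MIC-1 were gavaged with vehicle, by the study's text. No library had MIC-1 without LPS. By its description, the study's own analysis of the macrophages left out 1 LPS library, which it does not name. MIC-1 by gavage over 3 days and MIC-1 in a culture medium are different exposures, so the 2 sources are set side by side and not compared by a test.

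SAA proteins are small apolipoproteins that circulate on HDL particles during inflammation. In the acute-phase response, IL-6 and IL-1 from activated macrophages reach hepatocytes, where C/EBP, STAT3 and NF-κB factors drive the *Saa* promoters. SAA1 and SAA2 are the main plasma forms made by the liver, SAA3 is also made outside the liver by macrophages and adipocytes, and SAA4 is the constitutive member of the family, made at a steadier level.

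The 4 genes form a cluster that spans 42.3 kb of mouse chromosome 7 (mm9, the build of the submitters' processing notes). By the GENCODE annotation *Saa3* lies at chr7:53967368-53971046, *Saa4* at chr7:53983387-53987913 and *Saa1* at chr7:53995871-53998350, all on the minus strand. *Saa2* lies at chr7:54007203-54009684 on the plus strand, so that *Saa1* and *Saa2* are transcribed away from each other. Each is a protein-coding gene with 4 exons. The coding sequences of *Saa1* and *Saa2* were identical at 95.1% of aligned bases. *Saa3* was identical to *Saa1* at 76.1% and to *Saa2* at 75.1%. *Saa4* was the most distant member, at 65.2% with *Saa1*.

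**Figure D1:**
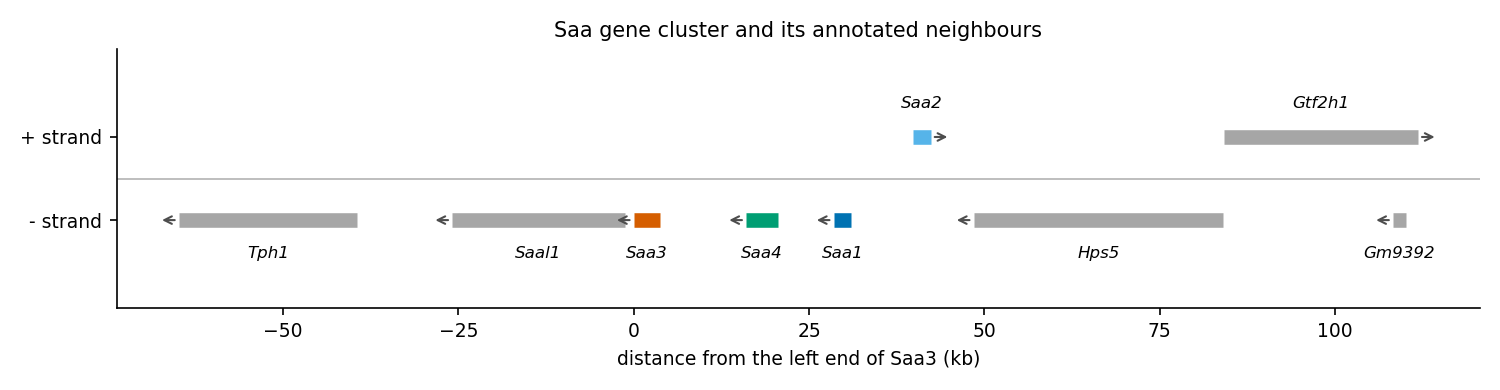
Map of the *Saa* cluster and its annotated neighbours, drawn to scale in kb from the left end of *Saa3*, with genes of the plus strand above the line and of the minus strand below it, and arrows in the direction of transcription. The 4 *Saa* genes (coloured) lie within 42.3 kb, between *Saal1* and *Hps5*. *Gm31882* and *Saa-ps*, which RefSeq lists within the cluster, and its neighbour *LOC115486835* had no position by the GENCODE annotation and are not drawn.

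The 250 bases upstream of each RefSeq start are shown (RefSeq table of GRCm38.p6, each with a single exact match in mm9). They are given for the near identity of *Saa1* and *Saa2* and for the motif matches, which were most frequent in *Saa3*. All are written 5′ to 3′ on the strand of the gene. Capitals mark matches to the C/EBP motif TTNNGNAA and to the TATA motif TATANA, searched on both strands with overlapping matches counted.
Saa3, chr7:53971047-53971296, minus strand: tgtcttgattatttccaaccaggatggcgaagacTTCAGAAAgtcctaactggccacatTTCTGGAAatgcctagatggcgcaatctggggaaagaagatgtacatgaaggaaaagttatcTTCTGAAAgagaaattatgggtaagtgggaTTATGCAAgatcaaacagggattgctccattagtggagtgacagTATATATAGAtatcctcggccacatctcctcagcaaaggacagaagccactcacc
Saa1, chr7:53998351-53998600, minus strand: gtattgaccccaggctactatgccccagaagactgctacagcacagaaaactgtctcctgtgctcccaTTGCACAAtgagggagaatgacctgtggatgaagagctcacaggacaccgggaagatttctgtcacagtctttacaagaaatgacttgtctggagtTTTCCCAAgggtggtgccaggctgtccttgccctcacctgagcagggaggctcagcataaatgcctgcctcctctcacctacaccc
Saa2, chr7:54006953-54007202, plus strand: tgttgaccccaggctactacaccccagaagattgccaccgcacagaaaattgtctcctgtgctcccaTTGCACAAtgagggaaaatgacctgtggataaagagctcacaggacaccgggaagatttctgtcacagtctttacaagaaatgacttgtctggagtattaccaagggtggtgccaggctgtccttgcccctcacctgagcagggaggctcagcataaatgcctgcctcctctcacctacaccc
Saa4, chr7:53987974-53988223, minus strand: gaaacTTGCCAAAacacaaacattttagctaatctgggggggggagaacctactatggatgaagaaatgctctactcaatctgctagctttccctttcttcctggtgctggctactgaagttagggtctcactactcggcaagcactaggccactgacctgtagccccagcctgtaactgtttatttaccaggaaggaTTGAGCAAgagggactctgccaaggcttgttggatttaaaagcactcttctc

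The *Saa1* and *Saa2* windows were identical at 94.8% of aligned bases, whereas each other pair of windows was identical at 43.8 to 48.5%. The C/EBP motif had 4 matches in the *Saa3* window, 2 in *Saa1*, 1 in *Saa2* and 2 in *Saa4*. At least 1 was held by 36.8% of 32851 mouse promoter windows of the same length, and the share with 4 or more was not counted. The *Saa1* and *Saa2* windows share the match TTGCACAA. *Saa3* alone of the 4 held the TATA motif, and 22.6% of all windows held it. Its 5 matches overlap in a single run of capitals. TATATA reads the same on both strands, so each such stretch was counted once on each strand. The NF-κB motif (in 7.25% of windows), the STAT motif TTCNNNGAA (7.02%), the AP-1 motif TGANTCA (6.75%) and the antioxidant response motif TGACNNNGC (10.2%) had 0 matches in the 4 windows. The letters searched for the NF-κB motif are not given here, and a count of 0 depends on them. A match is only a run of letters in the sequence, and binding was not measured.

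Several properties of the libraries bear on these genes. Column names give a treatment only, so libraries 1, 2 and 3 of a treatment are those met in turn in its table. Values are FPKM, fragments scaled to transcript length and sequencing depth, so levels can be compared between genes within a table. From the steps between low values, the libraries held about 13500000 to 23600000 reads in macrophages and 5700000 to 16700000 reads in liver. Macrophage LPS library 2 stood apart. Its median absolute log2 difference from control library 2 was 0.0556 over 5502 genes, against 0.653 from LPS library 1, while LPS libraries 1 and 3 differed by 0.0698. It is therefore named throughout as the library labelled LPS 2, and the macrophage tests of *Saa1*, *Saa2* and *Saa3* are given with and without it. Other libraries were close to each other as well. Libraries 1 and 3 of each macrophage treatment differed by 0.0513 to 0.0698. In liver (over 4132 genes), LPS libraries 1 and 3 differed by 0.137 and LPS+MIC-1 libraries 1 and 3 by 0.0728. Library 2 of these liver groups was 0.341 to 0.534 from the others. Liver control libraries 2 and 3 differed by 0.163, and control library 1 was 0.420 and 0.478 from them. By the study's text the liver tissue came from 9 mice, 3 for each treatment. For the macrophages the sources used here do not say whether close libraries are repeats of 1 culture. P-values are too small where libraries are repeats of 1 sample. In liver, hepatocyte markers (8 genes such as *Alb* and *Apoa1*) summed to 38634 to 86819 FPKM in all libraries. The 7 macrophage markers listed in the macrophage table summed to 9485 to 11526 FPKM, and *Cd68* was not analysed here.

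**Figure D2:**
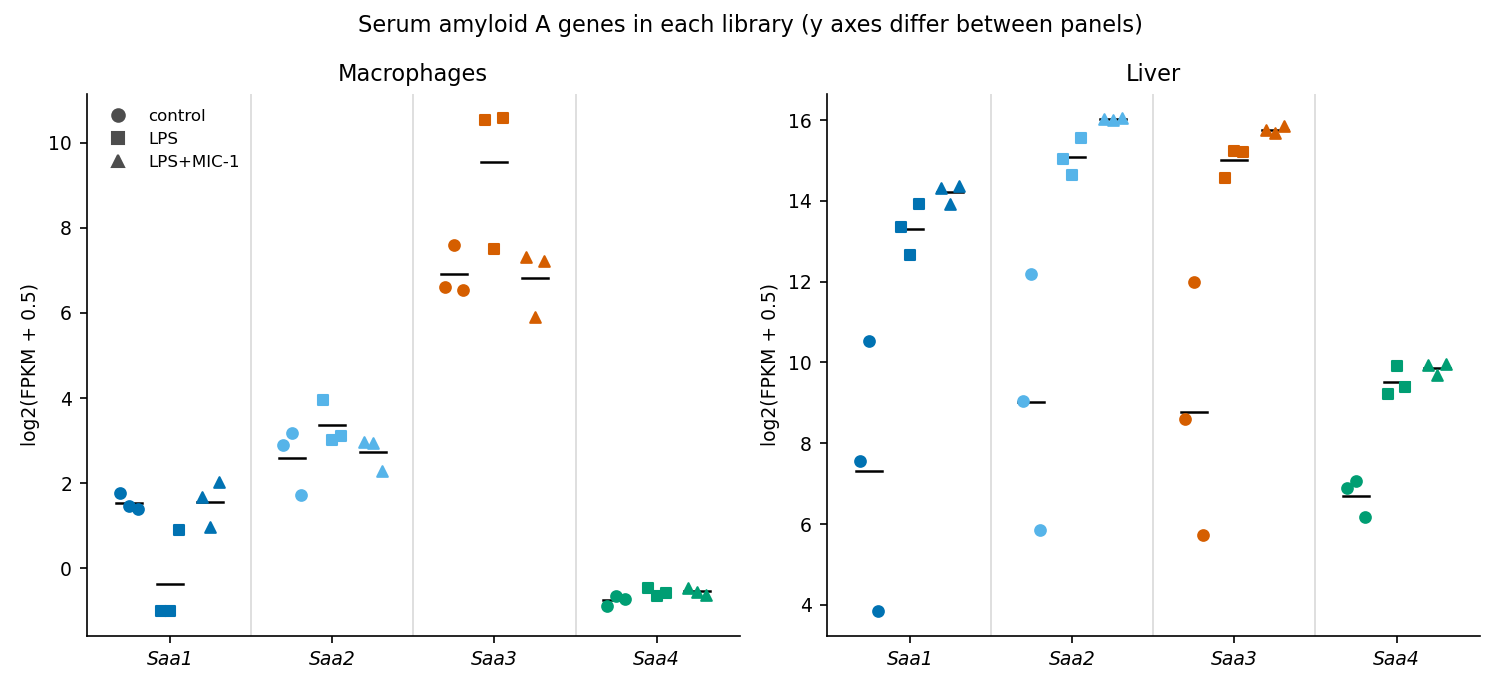
Level of each *Saa* gene in each of the 18 libraries as log2(FPKM + 0.5), with macrophages on the left and liver on the right and a separate y axis for each table. Each point is a library, its shape gives the treatment, the 3 points of a treatment run left to right in table order, and black bars are means of the 3 log2 values. In liver every treated library lies above every control library for all 4 genes, whereas in macrophages the *Saa3* point of the library labelled LPS 2 lies among the controls.

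In liver, LPS was followed by very high *Saa* levels. *Saa3* and *Saa4* rose past the threshold (limma, adjusted p below 0.01 and an absolute log2 fold change above 1), and *Saa1* and *Saa2* had folds like that of *Saa3* with adjusted p-values just above it. Every LPS library was above every control library for all 4 genes. Such separation upward occurred in 24.2% of the 10147 genes tested, and 6.14% were called higher (10.9% in either direction).

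*Saa1*, a main plasma form, had 187, 1491 and 13.9 FPKM in the control livers and 10516, 6438 and 15450 FPKM in the LPS livers. The controls themselves differed far more than the LPS livers, with library 2 high and library 3 low. The log2 fold change was 6.00 (SE 1.36) with an adjusted p of 0.0130 from limma, which misses the threshold. On this scale, log2(FPKM + 0.5), the fold is 63.9, whereas the ratio of the group means is 19.2, since the mean of the controls is set by library 2.

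*Saa2*, its near twin, had 524, 4703 and 57.6 FPKM in controls and 33709, 25531 and 48120 FPKM with LPS. The order of the 3 controls was that of *Saa1*. The log2 fold change was 6.05 (SE 1.28), with a limma adjusted p of 0.0104, again just short of the threshold. *Saa2* was 2.80 to 4.18 times as abundant as *Saa1* in every liver library, treated or not. Of the 31-base words of the *Saa1* transcript 23.0% also occur in *Saa2*, so how reads were divided between the pair is uncertain. The sum of both genes had a log2 fold change of 6.04 (limma adjusted p = 0.0111).

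*Saa3*, the form also made outside the liver, had 391, 4075 and 52.9 FPKM in controls. With LPS it had 24438, 38664 and 38037 FPKM, a level as high as that of *Saa2*. The ranges of *Saa2* and *Saa3* in the LPS livers overlapped, and both lay above that of *Saa1*. *Saa3* rose by 6.23 on the log2 scale (SE 1.26, limma adjusted p = 0.00904). This call was lost without any 1 of 8 libraries (adjusted p from 0.0142 to 0.0378) and kept without control library 2, where the log2 fold change was 7.84 and the adjusted p 0.00144. Without control library 2 *Saa1* and *Saa2* were called as well (limma adjusted p = 0.00402 and 0.00232).

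*Saa4*, the constitutive member, had 117, 134 and 71.6 FPKM in controls, a spread far narrower than that of the other 3 genes. With LPS it had 597, 967 and 667 FPKM. It rose by 2.80 on the log2 scale (SE 0.29, limma adjusted p = 0.000735), a smaller change with a lower adjusted p, and the call held without any 1 library. With libraries 1 and 3 of each treated group averaged (a choice made once their closeness was known), neither *Saa3* (limma adjusted p = 0.0586) nor *Saa4* (0.0140) was called. In control library 3, where the other members were lowest, *Saa4* was the most abundant of the family.

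For each gene a two-sided exact permutation test of these 3 against 3 libraries gave p = 0.1, the smallest that this design allows. In bulk tissue, fewer cells of a type and less RNA per cell cannot be told apart.

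The control livers formed a series that other acute-phase genes shared in part. Of 22 other acute-phase genes, 13 were highest in control library 2, 8 in control library 1 and 1 in control library 3. In control library 3, 20 of the 22 were lowest. *Lcn2*, which encodes the siderophore-binding protein lipocalin 2, had 405, 2037 and 35.5 FPKM in the 3 controls. Neutrophil markers (9 of 10 genes listed, summed) had 10.98, 10.3 and 2.81 FPKM there, so they were low in library 3 but not higher in library 2 than in library 1. Estimated depth was 10100000, 5700000 and 5700000 reads. The part of either in the spread of the *Saa* genes was not tested.

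Mice given LPS+MIC-1 also had high *Saa* levels, and against the same control libraries all 4 genes rose past the threshold. Over all genes tested 7.14% were called higher in this comparison (13.5% in either direction), and 30.5% were higher with no overlap of the groups. *Saa1* had 20441, 15627 and 21262 FPKM (mean 19110.4 ± 3044 SD, n = 3) and rose by 6.90 on the log2 scale (SE 1.36, limma adjusted p = 0.00733). *Saa2* had 66233, 65252 and 67773 FPKM (66419 ± 1271 SD, n = 3) and rose by 6.99 (SE 1.28, limma adjusted p = 0.00572). The 3 libraries were nearly alike for *Saa2*, the most abundant transcript of the table in each of them.

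*Saa3* had 55080.4, 52637 and 58840.5 FPKM (55519 ± 3125 SD, n = 3) and rose by 6.98 (SE 1.26, limma adjusted p = 0.00539). It ranked second in abundance in all 3 libraries, and its range lay below that of *Saa2*. *Saa4* had 986, 822 and 995 FPKM (935 ± 97.4 SD, n = 3) and rose by 3.16 (SE 0.29, limma adjusted p = 0.000488). Without control library 1, LPS library 1 or any 1 of the LPS+MIC-1 libraries, *Saa1*, *Saa2* and *Saa3* were no longer called, and without LPS library 3 *Saa1* was not (adjusted p from 0.0102 to 0.0292). The call of *Saa4* held without any 1 library. With close libraries averaged as 1 sample no *Saa* gene was called (limma adjusted p from 0.0123 for *Saa4* to 0.0431 for *Saa1*). The exact permutation p was again 0.1 for each gene.

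Between LPS+MIC-1 and LPS livers, *Saa1*, *Saa2* and *Saa3* were higher in every LPS+MIC-1 library than in any LPS library. This contrast served to choose the genes, so its values are a description. Among all genes tested 5.10% were higher with no overlap between these groups, and 0 of 10147 passed the limma threshold (smallest adjusted p 0.0546, with 364 genes at an unadjusted p under 0.05). *Saa1* differed by 0.90 on the log2 scale, from 10801.5 ± 4513 to 19110.4 ± 3044 FPKM (SD, n = 3). Its lowest LPS+MIC-1 value, 15627 FPKM, was close to its highest LPS value, 15450 FPKM. As a share of summed FPKM its groups overlapped, at 0.750 to 1.74% with LPS and 1.56 to 2.00% with LPS+MIC-1. The shares of *Saa2* and *Saa3* did not overlap. *Saa2* differed by 0.94, from 35787 ± 11437 to 66419 ± 1271 FPKM. *Saa3* differed by 0.75, from 33713 ± 8038 to 55519 ± 3125 FPKM. *Saa4* differed by 0.36, from 744 ± 197 to 935 ± 97.4 FPKM, and its groups overlapped.

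Together the 4 genes took 0.161, 1.67 and 0.0332% of the summed FPKM in the control livers. They took 8.84, 8.35 and 11.5% in the LPS livers and 13.9, 13.4 and 14.0% in the LPS+MIC-1 livers. The 3 groups did not overlap, and the LPS+MIC-1 libraries were the most alike. *Saa2* ranked first and *Saa3* second among all genes in 5 of the 6 treated livers. In LPS library 2 *Saa3* had rank 1 and *Saa2* rank 5, and the ratio of *Saa3* to *Saa2* was 1.51 there against 0.725 to 0.917 in the other 8 liver libraries.

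Some markers of other cells moved with treatment too. The summed neutrophil markers had 2.81 to 10.98 FPKM in control, 340 to 441 FPKM in LPS and 186 to 452 FPKM in LPS+MIC-1 livers. Of 6 tested neutrophil genes 4 were called higher after LPS, against 6.14% of all genes tested. The 7 macrophage markers listed summed to 22.5 to 42.6, 50.6 to 59.1 and 33.6 to 75.9 FPKM. They did not move together. With LPS the log2 differences were 1.94 for *Itgam*, 0.93 for *Lyz2*, 0.22 for *Fcgr1*, 0.20 for *Csf1r* and -1.30 for *Mrc1*. The 6 markers of Kupffer cells, the macrophages of the liver, summed to 102 to 112, 90.1 to 110 and 83.0 to 177 FPKM. With LPS, 1 of these was called higher and 1 lower, against 10.9% of all genes tested called in either direction. Of the 7 adipocyte markers, *Adipoq* was listed at 0 in all liver libraries, while the list summed to 5.91 to 26.3 FPKM in controls and 159.5 to 298 FPKM in treated livers, carried by *Cidec* and *Fabp4*. The part of these cells in the level of *Saa3* was not tested.

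In macrophages the family looked different, and *Saa3* was the member with a substantial level. *Saa3* had 97.7, 193 and 93.1 FPKM in control cells. With LPS it had 1477, 180.0 and 1525 FPKM, so that the library labelled LPS 2 lay within the control range and the groups overlapped. The log2 fold change over all 9 libraries was 2.61 (SE 0.82) with a limma adjusted p of 0.0777, and the exact permutation p was 0.2. No gene passed the threshold in that fit (0% of 9905 tested), in which 0.0777 was the smallest adjusted p and 4928 genes had an unadjusted p under 0.05.

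Without the library labelled LPS 2, *Saa3* rose by 3.63 on the log2 scale (SE 0.46, limma adjusted p = 0.000196). In that fit 16.4% of genes were called higher and 34.2% in either direction. LPS libraries 1 and 3 then averaged 1501 ± 33.5 FPKM (SD, n = 2), which placed *Saa3* at ranks 129 and 128 among all genes, from 462 to 956 in the controls.

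With LPS+MIC-1, *Saa3* had 159, 59.6 and 149 FPKM, within or below the control range. Against control the log2 difference was -0.10 (SE 0.82, limma adjusted p = 0.941), or -0.10 (SE 0.41, adjusted p = 0.847) without the library labelled LPS 2. In the same comparison 5.59% of all genes tested were called, or 15.8% without that library. Against LPS, which is a description only, *Saa3* was lower by a log2 difference of -2.72, or -3.73 without that library, and every LPS+MIC-1 library was below every LPS library. Such separation downward occurred in 18.2% of genes.

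*Saa1* in macrophages had 2.90, 2.24 and 2.14 FPKM in controls, about 30, 21 and 22 reads. With LPS it was listed at 0, 0 and 1.37 FPKM, and with LPS+MIC-1 it had 2.71, 1.47 and 3.61 FPKM. Its LPS libraries lay below all controls, as did those of 17.2% of genes tested, and below all LPS+MIC-1 libraries, where 17.9% of genes were higher than with LPS. The log2 difference between LPS and control was -1.91 (SE 0.52, limma adjusted p = 0.0777), or -1.59 (SE 0.53, adjusted p = 0.0266) without the library labelled LPS 2, and passed the threshold in neither fit. *Saa2* had 6.91, 8.55 and 2.81 FPKM in controls, 15.0, 7.62 and 8.20 FPKM with LPS and 7.32, 7.21 and 4.40 FPKM with LPS+MIC-1. The control and LPS ranges of *Saa2* overlapped (log2 difference 0.77, SE 0.42, limma adjusted p = 0.163, or 0.94, SE 0.45, adjusted p = 0.0934 without the library labelled LPS 2). The part that the division of reads between the pair has in the listed 0 of *Saa1* was not tested. Their sum was 4.95 to 10.8 FPKM in controls, 7.62 to 15.0 FPKM with LPS and 8.01 to 10.0 FPKM with LPS+MIC-1, with overlap between all groups and a log2 difference of 0.33 between LPS and control (limma adjusted p = 0.408).

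Against control, LPS+MIC-1 gave a log2 difference of 0.02 for *Saa1* (SE 0.52, limma adjusted p = 0.979) and 0.14 for *Saa2* (SE 0.42, limma adjusted p = 0.840). Without the library labelled LPS 2 the adjusted p-values were 0.969 and 0.790. *Saa4* had 0.0429 to 0.140 FPKM in controls, 0.141 to 0.223 FPKM with LPS and 0.153 to 0.231 FPKM with LPS+MIC-1. Both treated groups lay above the controls, as did 16.1% of tested genes with LPS and 31.4% with LPS+MIC-1. With LPS this rests on 0.141 FPKM in the library labelled LPS 2 against 0.140 FPKM in control library 2, about 6 reads in each. By share of summed FPKM the LPS and control libraries overlapped. The *Saa4* values stand for about 2 to 9 reads a library, are under the mean FPKM of 1 needed for the test, and were not tested. In order of level, *Saa3* was above *Saa2*, *Saa2* above *Saa1* and *Saa1* above *Saa4* in every library but the 2 in which *Saa1* was listed at 0. *Saa1* and *Saa2* overlapped in the control cells.

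The low level of 3 members in macrophages resembled that of liver genes. Averaged over the 9 libraries of each table, *Saa1*, *Saa2* and *Saa4* stood in macrophages at 0.0180, 0.0218 and 0.0261% of their liver mean. The 8 hepatocyte markers stood at 0.0107 to 0.0349% of theirs, with *Alb* at 0.0122%. Only *Cyp2e1*, at 0.0349%, stood above these 3 *Saa* genes, and the next highest marker was *Apob* at 0.0156%. *Saa3* stood at 1.45%. The tables were normalized separately, so these percentages are approximate and no test was made across them. The genes with the profile most like that of *Saa2* over the 9 macrophage libraries were *Alb* (albumin), *Serpina3k* (a serine protease inhibitor) and *BC096441*, with root mean square differences of 0.19, 0.19 and 0.23 on the centred log2 scale. The hepatocyte markers summed to 15.0 FPKM in LPS library 1, where *Saa2* was highest, and to 2.62 FPKM in control library 3, where *Saa2* was lowest. Whether this low signal comes from the cells was not tested.

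**Figure D3:**
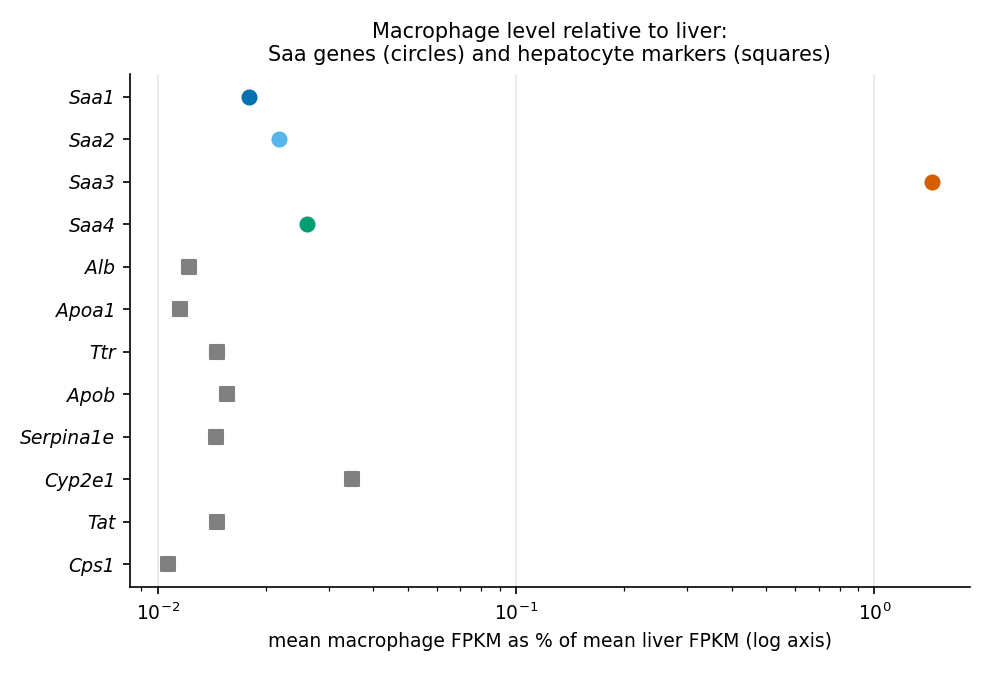
Mean FPKM over the 9 macrophage libraries as a percentage of the mean over the 9 liver libraries, on a log axis, for the 4 *Saa* genes (circles) and 8 hepatocyte markers (squares). *Saa1*, *Saa2* and *Saa4* lie between 0.0180 and 0.0261%, above every marker except *Cyp2e1* (0.0349%), and *Saa3* lies at 1.45%.

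The profile of *Saa3* over the 9 macrophage libraries was most like that of *Ccrl2*, which encodes an atypical chemerin receptor, with a root mean square difference of 0.27. *Baiap2*, *Ifi205*, *Snord55* and *Arl4d* followed at 0.28, 0.34, 0.45 and 0.46. *Ccrl2* had 2.53, 4.67 and 2.07 FPKM in controls, 61.3, 4.22 and 56.9 FPKM with LPS and 4.20, 1.22 and 6.04 FPKM with LPS+MIC-1. As for *Saa3*, its library labelled LPS 2 lay within the controls and its lowest value was in LPS+MIC-1 library 2. These similarities rest on 9 libraries, of which LPS 1 and 3 carry most of the pattern. *Klhl22*, *BC002230* and *Ehbp1* were most like *Saa1* in macrophages, at 0.51, 0.61 and 0.62, and they too were listed at 0 in LPS library 1.

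In liver the genes most like *Saa3* were *Lcn2*, the metallothionein *Mt2*, the orosomucoid *Orm2*, *Mt1* and *Apcs*, which encodes the pentraxin serum amyloid P component. Their root mean square differences were 0.43, 0.55, 0.68, 0.74 and 1.06, against 0.30 between *Saa3* and *Saa2*. *Lcn2*, *Mt2* and *Mt1* were also the genes most like *Saa1* and *Saa2*, which differed from each other by 0.19. *Saa4* was at least 2.14 from each other member and was closest to *Rbm18*, the haem-binding *Hpx* and *Bcl2a1a*, at 0.29, 0.30 and 0.37. *Rbm18* and *Bcl2a1a* were listed at 0 in the control livers.

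**Figure D4:**
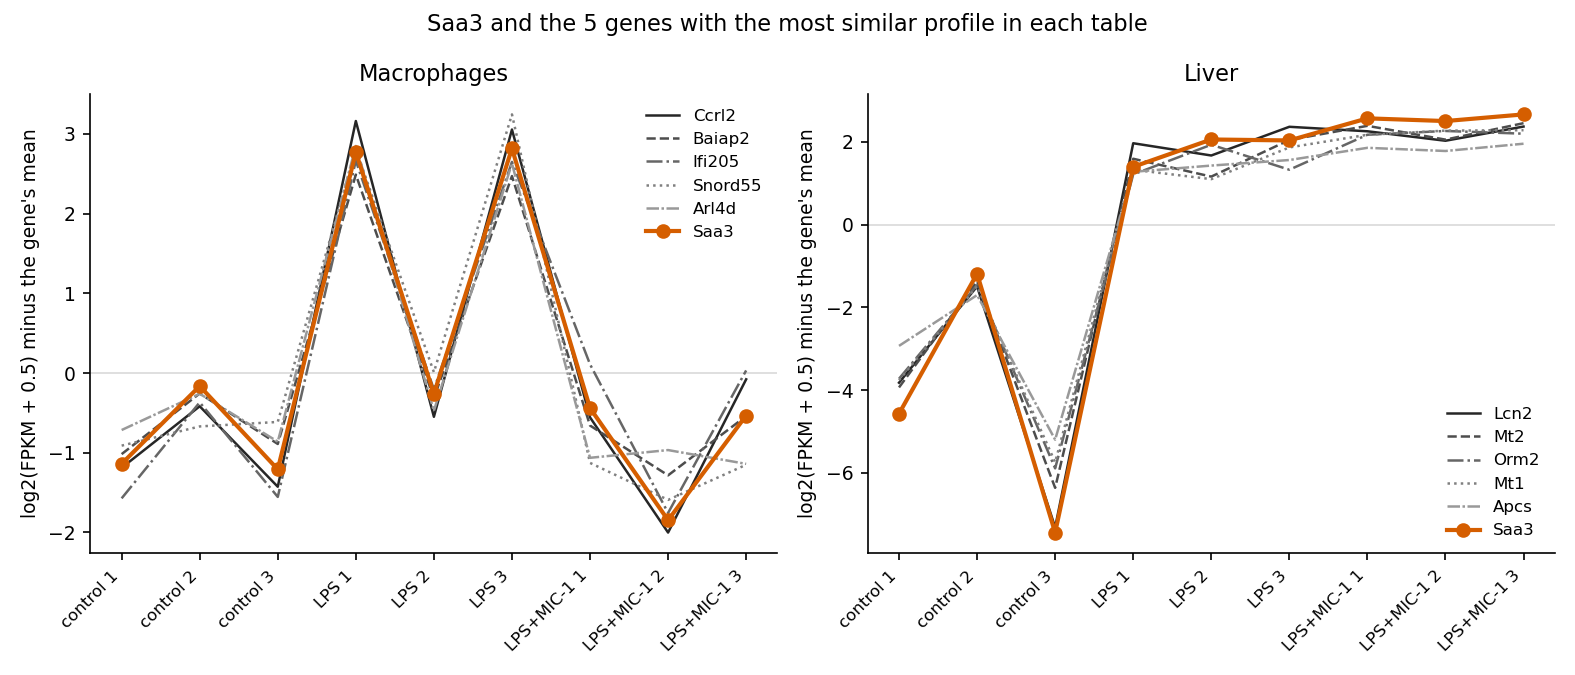
Profile of *Saa3* (orange, with points) and of the 5 genes most like it in macrophages and in liver, as log2(FPKM + 0.5) minus the mean of each gene over the 9 libraries, with libraries on the x axis in table order. In macrophages LPS libraries 1 and 3 are the peaks, and in liver control library 2 lies above control libraries 1 and 3.

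Among the genes around the cluster, none of the 3 tested in liver passed the threshold with LPS. *Saal1*, the neighbour of *Saa3*, had 0.837 to 2.30 FPKM in liver, with a log2 difference of 0.50 between LPS and control (limma adjusted p = 0.0967). *Hps5*, next to *Saa2*, had a log2 difference of -0.83 (adjusted p = 0.167) and *Gtf2h1* one of 0.40 (adjusted p = 0.720). *Tph1* was at most 0.0397 FPKM in liver. *LOC115486835* and *Gm9392* complete the 3 nearest annotated genes on each side and were not analysed here.

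Other genes of the acute-phase pathway are given from lists of its inducers, transcription factors, products and receptors. In liver, 16 of 22 other acute-phase genes were called higher with LPS (6.14% of all genes tested were) and 0 lower, with a median log2 fold change of 3.49 (0.15 over all genes tested). With LPS+MIC-1 against the same controls, 20 of the 22 were called higher (7.14% of all genes), with a median of 3.89. *Lcn2* had the largest log2 fold change with LPS (6.21, limma adjusted p = 0.00732), close to that of *Saa3*. *Hamp*, which encodes the iron hormone hepcidin, had the smallest (-1.87, limma adjusted p = 0.0114).

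Of 9 tested inducers and their receptor chains, 4 were called higher and 1 lower in LPS livers, where 6.14% of all genes tested were called higher and 10.9% in either direction. *Il1b*, which encodes the cytokine IL-1β, had 0.587 to 1.72 FPKM in controls and 7.21 to 9.88 FPKM with LPS, and rose by 2.52 (limma adjusted p = 0.00193). *Lifr*, a receptor chain of the IL-6 family, fell by 1.65. Of 13 tested transcription factors 2 were called higher and 0 lower, against the same share of all genes. The largest log2 fold change was that of *Cebpd* at 3.03 (limma adjusted p = 0.000631). *Cebpd* encodes C/EBPδ, a factor that binds the motif marked in the *Saa* windows. *Sp1* had the smallest, at -0.33.

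Of 13 tested receptors and carriers of SAA 4 were called higher and 1 lower. *Cd14*, a co-receptor for LPS, rose by 5.38 (limma adjusted p = 0.00578). *Pltp*, which transfers phospholipids to the HDL that carries SAA, fell by 3.25 (limma adjusted p = 0.000373). With LPS+MIC-1 against control, 3 inducers were called higher and 2 lower, 2 transcription factors higher, and 5 receptors or carriers higher and 1 lower, against 7.14% of all genes called higher and 13.5% in either direction.

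In macrophages 0 genes of the 4 lists were called by limma with all 9 libraries, as over the whole table, where 4928 genes had an unadjusted p under 0.05. Without the library labelled LPS 2, 5 of 10 inducers were called higher and 1 lower, 3 of 12 transcription factors higher, 3 of 14 receptors or carriers higher and 2 lower, and 4 of 11 acute-phase genes higher. Over all genes tested 16.4% were called higher in that fit and 34.2% in either direction, so the counts of transcription factors and of receptors or carriers were close to the share of all genes. The largest and smallest log2 fold changes of each list with all 9 libraries were those of *Il1a* (4.64) and *Il6ra* (-1.34), *Cebpb* (1.26) and *Nr1h3* (-0.63), *Pltp* (1.04) and *Tlr4* (-1.69), and *Lcn2* (5.28) and *Hp* (-1.66). Without the library labelled LPS 2 they were *Il1a* (6.81) and *Il6ra* (-1.98), *Cebpb* (1.71) and *Nr1h3* (-1.23), *Apoa2* (2.16) and *Tlr4* (-2.54), and *Lcn2* (7.30) and *Hp* (-2.71). Against control, LPS+MIC-1 cells had 2 inducers, 1 transcription factor, 2 receptors or carriers and 1 acute-phase gene called higher, and 2 receptors or carriers called lower, where 3.27% of all genes were called higher. Without the library labelled LPS 2 these counts were 6, 3, 3 and 3 higher and 2 lower, where 7.64% of all genes were called higher.

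Between LPS+MIC-1 and LPS macrophages, a contrast described without a test, 2 of the 11 acute-phase genes had a positive log2 difference and the median was -0.45, or 3 of 11 and -0.56 without the library labelled LPS 2. *Hamp* had the lowest (-3.10). It had 51.2, 0.526 and 40.7 FPKM with LPS and 0.587, 2.15 and 0.691 FPKM with LPS+MIC-1. Of the 10 inducers 8 had a positive difference, with a median of 1.15, or 0.55 without that library. *Lcn2*, which went against most of its list, and *Il1a*, which went with most of its list, are given by library and were chosen after their values were seen. *Lcn2* had 5.56, 23.4 and 7.67 FPKM in control macrophages and 1661, 24.5 and 1669.9 FPKM with LPS. With LPS+MIC-1 it had 3223, 2742 and 3373 FPKM, higher than in any LPS library, where *Saa3* was at or near its control level. *Il1a*, which encodes the cytokine IL-1α, had 0.115 to 0.323 FPKM in controls, 84.0, 0.401 and 79.8 FPKM with LPS and 236, 25.5 and 234 FPKM with LPS+MIC-1. In liver *Lcn2* was the gene most like *Saa3*, and its LPS+MIC-1 values (27409.8, 23389 and 29666 FPKM) overlapped its LPS values (22433.5, 18268 and 29552 FPKM).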

How the data were processed

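RNA-seq was done on 9 macrophage and 9 liver libraries, 3 for each treatment. The authors used Kallisto 0.45.0 to pseudoalign reads to RefSeq transcripts of mm9 and made gene-level FPKM values with DESeq2 1.20.0, and these deposited FPKM tables, scaled separately, were used. The 6 deposited tables of the authors' own comparisons (fold changes and p-values) were not used. Columns were grouped by the treatment in their names, and 0 were unmatched.

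In each table, genes averaging more than 1 FPKM over all libraries (9905 in macrophages, 10147 in liver) were fitted with limma 3.58.1 in R 4.3.3 (lmFit, contrasts, eBayes with trend) on log2(FPKM + 0.5), which understates the change of low genes. P-values were adjusted by Benjamini-Hochberg over each comparison, and a call needed an adjusted p below 0.01 and an absolute log2 fold change above 1. *Saa4* did not pass the filter in macrophages. The fit was also run on simulated data in which all libraries were independent. That run cannot show how the fit behaves where libraries are close to each other. Exact permutation tests were two-sided, on single genes. The members and lists were chosen with earlier results of these data known. Named genes are the 4 members, the 5 genes most like *Saa3* and 3 most like each other member by root mean square difference of centred log2 profiles, the extremes of each list and the 3 nearest annotated genes on each side. Levels of the library markers and of *Lcn2* and *Il1a* by library were added after their values were seen.

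Depth was estimated from steps between low FPKM values in genes with 1 transcript, of which 61.9 to 86.4% in a library came within 0.1 of a whole read. At that depth, libraries 1 and 3 of each macrophage treatment differed by 1.30 to 1.56 times counting noise, control library 2 and LPS library 2 by 1.52 times, and libraries 1 and 3 of the liver LPS and LPS+MIC-1 groups by 2.53 and 1.56 times. Liver control libraries 2 and 3 differed by 2.15 times, and other pairs within a group by 3.76 to 16.6 times. All differed by more than counting noise and were counted as labelled, which does not show that they are separate samples. By the study's text the liver tissue came from 9 mice, 3 for each treatment. The sources used here do not say whether the macrophage libraries came from separate cultures, and their p-values then measure only the spread between libraries. Alternatives were other pseudocounts, filters, scalings and fits, each library left out, and *Saa1* and *Saa2* summed. Sequences came from RefSeq and GENCODE vM1, with identity and motifs computed in Python 3.11.15 with Biopython 1.88.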

Additional observations from a re-analysis of the deposited data

Results flagged for a closer look

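Every library of one source moved opposite to the other source in 3 results. Between LPS and control, *Saa1* differed by -1.91 in macrophages and by 6.00 in liver on the log2 scale, with each LPS library below all controls in macrophages and above all controls in liver. The macrophage values rest on at most 30 estimated reads a library, and for the sum of *Saa1* and *Saa2* the macrophage groups overlapped.

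Between LPS+MIC-1 and LPS, *Saa2* differed by -0.63 in macrophages and by 0.94 in liver. Its highest LPS+MIC-1 value in macrophages was 7.32 FPKM and its lowest LPS value 7.62 FPKM, about 64 and 73 reads. By share of summed FPKM the macrophage groups overlapped (0.000724 to 0.00132% with LPS, 0.000679 to 0.00113% with LPS+MIC-1). Separation downward occurred in 18.2% of genes in macrophages and separation upward in 5.10% in liver. *Saa3* differed by -2.72 in macrophages and by 0.75 in liver, which is the pattern the genes were chosen for. For all 3, the difference between the sources was not tested, since the tables were normalized separately and the exposures differ.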

How the results depend on the processing

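Folds kept their direction wherever a call was made. In liver, the calls of *Saa1*, *Saa2* and *Saa3* lay close to the threshold. The cause of the changes below was not tested. With an adjusted p below 0.05 as the threshold, *Saa1* (log2 fold change 6.00) and *Saa2* (6.05) were called with LPS too. *Saa2* was also called with a pseudocount of 1 (6.04, adjusted p = 0.00972) and with genes above a mean FPKM of 5 (6.05, adjusted p = 0.00791). *Saa3* lost its call with LPS at a pseudocount of 0.1 (6.23), with no filter on low values (6.23, adjusted p = 0.0169) and with the 2 groups alone in the fit (6.23, 0.0308). Against control, LPS+MIC-1 calls were lost with no filter for *Saa1* (6.90, 0.0125), *Saa2* (6.99, 0.0110) and *Saa3* (6.98, 0.0104), and with the 2 groups alone for *Saa1* (6.90, 0.0183), *Saa2* (6.99, 0.0149) and *Saa3* (6.98, 0.0144).

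Without 1 library each in turn, the log2 fold change with LPS ranged from 4.26 to 7.61 for *Saa1*, 4.46 to 7.63 for *Saa2* and 4.71 to 7.84 for *Saa3* in liver. With LPS+MIC-1 it ranged from 5.16 to 8.51, 5.40 to 8.57 and 5.46 to 8.58. For *Saa3* in macrophages with LPS it ranged from 2.09 to 3.63, and it was called in 1 of 9 such fits, that without LPS library 2.

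Averaging close libraries as 1 sample (1 and 3 of each macrophage group and of the treated liver groups, with the liver controls kept separate) was chosen after seeing the data. It left 43 genes called with LPS and 35 with LPS+MIC-1 in liver, against 1102 and 1370, and 0 against 554 with LPS+MIC-1 in macrophages. No *Saa* gene was called then. With LPS, *Saa3* had 6.30 (adjusted p = 0.0586) and *Saa4* 2.91 (0.0140), and with LPS+MIC-1 *Saa1* had 6.83 (0.0431), *Saa2* 6.98 (0.0372), *Saa3* 6.96 (0.0362) and *Saa4* 3.11 (0.0123). Over the other fits the count of called genes with LPS ranged in liver from 176 (without LPS library 3) to 2503 (without LPS library 2). With LPS+MIC-1 it ranged from 165 to 2179 in liver and from 142 to 1565 in macrophages.

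Among values without a test, rescaling each library to the same sum shifted the median log2 difference of all genes by -0.63 (LPS against control), -0.18 (LPS+MIC-1 against control) and 0.45 (LPS+MIC-1 against LPS) in macrophages and by -0.34, -0.60 and -0.25 in liver. Between LPS+MIC-1 and LPS it then gave -0.16 for *Saa2* and 0.15 for *Saa4* in macrophages, and 0.46 for *Saa3* and 0.0654 for *Saa4* in liver. *Saa4* in macrophages with LPS had 0.0456. With a pseudocount of 0.1, *Saa4* in macrophages had 0.52 with LPS and 0.57 with LPS+MIC-1 against control, and *Saa1* had 3.37 between LPS+MIC-1 and LPS. With *Saa1* and *Saa2* summed, that difference was -0.21 and so changed sign for *Saa1*. In macrophages *Saa1* could not be tested among genes above a mean FPKM of 5.

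No paired analysis was possible because the columns carry no replicate numbers. Depth limits *Saa1* and *Saa4* in macrophages, at 0 to 30 and 2 to 9 estimated reads a library.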
